A study of Mus musculus with 31 samples.

Results

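The mitochondria-encoded genes are the 37 genes of the mouse mitochondrial chromosome, taken as every gene of the count table whose GENCODE M21 symbol begins with mt-, out of 55536 genes. They comprise 13 mRNAs, 2 ribosomal RNAs (rRNAs) and 22 transfer RNAs (tRNAs). The rule used names and no measured value. They were followed through 31 mouse libraries made by translating ribosome affinity purification (TRAP), in which a GFP-tagged ribosomal protein, L10a, is pulled down together with the RNA on its ribosomes. The Cre libraries came from Nav1.8-Cre;L10a-eGFP-fl/fl mice and the negative controls from L10a-eGFP-fl/fl mice. Both genotypes therefore carried the floxed L10a-eGFP allele, and only the first carried the driver that switches it on. Nav1.8 is the sodium channel encoded by Scn10a and is expressed mainly in pain-sensing neurons, so the tag reaches only that subset of sensory neurons. Central axons were sampled as lumbar dorsal root with spinal cord, peripheral axons as sciatic nerve, and cell bodies (somas) as lumbar dorsal root ganglia. By the batch labels, central axons were prepared with one set of somas (batch 1) and peripheral axons with another (batch 2). There were 4 libraries in each of 7 groups and 3 in the remaining group, the control sciatic nerves (replicates 1, 2 and 4). Central and peripheral axons were never in the same batch and are not compared directly. The columns of 2 of the batch 1 soma controls shared a heading and are called replicates a and b. The labels call the replicates biological but do not tie them to animals or say whether animals were pooled, so p-values measure the spread between these libraries only.

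The mitochondrial chromosome encodes a small core of the respiratory chain. mt-Nd1 to mt-Nd6 and mt-Nd4l are subunits of complex I, mt-Cytb of complex III, mt-Co1 to mt-Co3 of complex IV, and mt-Atp6 and mt-Atp8 of the ATP synthase (complex V). mt-Rnr1 and mt-Rnr2 are the RNAs of the small and large subunits of the mitochondrial ribosome, and the tRNAs serve that ribosome. The chromosome is transcribed as long precursors from both strands, which are cut apart largely at the tRNAs. Its mRNAs are translated inside the organelle on ribosomes that do not contain L10a, so in a pulldown of tagged cytosolic ribosomes they can serve as a measure of RNA that came along without the tag. Every other protein of these complexes is encoded in the nucleus and made on cytosolic ribosomes.

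Of the 37 genes, 10 had 0 counts in all 31 libraries. Most of these lay in 1 stretch of the chromosome, parts of which have near-exact copies among annotated pseudogenes on chromosome 1. The stretch, chrM:6390-11042 (mm10, 4653 bases), runs in the same order as 7 annotated pseudogenes on the minus strand of chr1:24611535-24616188 (4654 bases). The bases between these pseudogenes were not aligned, so a copy of the whole stretch is inferred from order and spacing. The stretch holds 11 whole genes. Of these, 9 were at 0 everywhere (mt-Co2, mt-Atp8, mt-Atp6, mt-Co3, mt-Nd4l, mt-Ts1, mt-Td, mt-Tk and mt-Tg). Of the 26 genes outside the stretch or reaching over its edge, 1 was at 0 (mt-Th, a tRNA gene). The whole genes inside held 1247 counts and the others 1310478. The 7 pseudogene copies held 8 counts in all 31 libraries together. How the submitters counted reads that fit more than 1 place is not given in the sources used here, and its part in these zeros was not tested. A count of 0 allows up to 0.153 CPM (counts scaled to a common library total) in the deepest library and 0.833 in the shallowest, which covers counting error only and no read set aside before counting.

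The sequences at the ends of the stretch and of the genes in it show how close the copies are. They are read from the GENCODE M21 transcripts of mm10 and written 5′ to 3′ on the strand of the mitochondrial gene. In the first pair below, the copy starts inside mt-Co1, at base 1063 of the gene. The capital letter marks the only difference in the window, A1066T, with positions counted from the first base of mt-Co1.
mt-Co1, chrM:6390-6423, plus strand: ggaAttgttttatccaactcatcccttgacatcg
Gm29216, chr1:24616155-24616188, minus strand: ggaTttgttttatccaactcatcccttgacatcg
mt-Nd4l and its copy had the same 60 bases at their start, and no letter is marked.
mt-Nd4l, chrM:9877-9936, plus strand: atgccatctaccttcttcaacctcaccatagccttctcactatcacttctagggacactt
Gm10222, chr1:24612641-24612700, minus strand: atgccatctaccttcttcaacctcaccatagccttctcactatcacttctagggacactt
The start of mt-Nd3 differed from its copy by T3C, counted from the first base of mt-Nd3 and marked in capitals.
mt-Nd3, chrM:9459-9491, plus strand: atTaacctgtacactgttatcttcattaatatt
Gm28438, chr1:24613087-24613119, minus strand: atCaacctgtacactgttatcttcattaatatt
The copy ends inside mt-Nd4. The capitals mark the bases of mt-Nd4 that follow its end.
mt-Nd4, chrM:11013-11072, plus strand: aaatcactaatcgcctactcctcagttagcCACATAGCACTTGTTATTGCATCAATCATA
mt-Atp8 has no annotated copy of its own, but it lies between annotated copies and shares its last 43 bases with the start of mt-Atp6 on the same strand. The shared bases are in capitals up to the end of the window shown.
mt-Atp8, chrM:7897-7969, plus strand: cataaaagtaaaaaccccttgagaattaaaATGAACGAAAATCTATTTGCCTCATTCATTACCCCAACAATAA

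Apart from mt-Atp8, the mRNAs at 0 were copied almost whole in annotated nuclear transcripts, while the genes copied in part had counts. Of all 50-base windows, 100% were found unchanged in an annotated nuclear transcript for mt-Co2, 99.9% for mt-Co3, 99.5% for mt-Atp6 and 98.8% for mt-Nd4l, and all 4 mRNAs were at 0. The share was 62.2% for mt-Nd4 and 51.1% for mt-Co1, which cross the edges and kept 85173 and 104657 counts. It was 8.19% for mt-Nd2, 7.61% for mt-Nd5 and 1.04% for mt-Rnr2, and 0% for mt-Nd1, mt-Nd6, mt-Cytb and mt-Rnr1. mt-Nd3 broke the pattern, with 98.0% of its windows copied and 1230 counts in 25 libraries. mt-Tr, the tRNA gene between mt-Nd3 and mt-Nd4l, had 17 counts in 5 libraries. These were the only 2 genes wholly inside the stretch with any count. The running order of the 2 chromosomes shifts by 1 base between the end of mt-Nd3 and the start of mt-Nd4l, the interval that holds mt-Tr. For mt-Co1 and mt-Nd4 the level depends on whether reads from the copied part were counted, which is not given in the sources used here, so their levels are not ranked against those of other genes. Adding 17 nuclear transcripts that matched a mitochondrial gene, an alternative chosen after seeing the data, would have added 1105 counts, 0.0842% of the total.

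**Figure D1:**
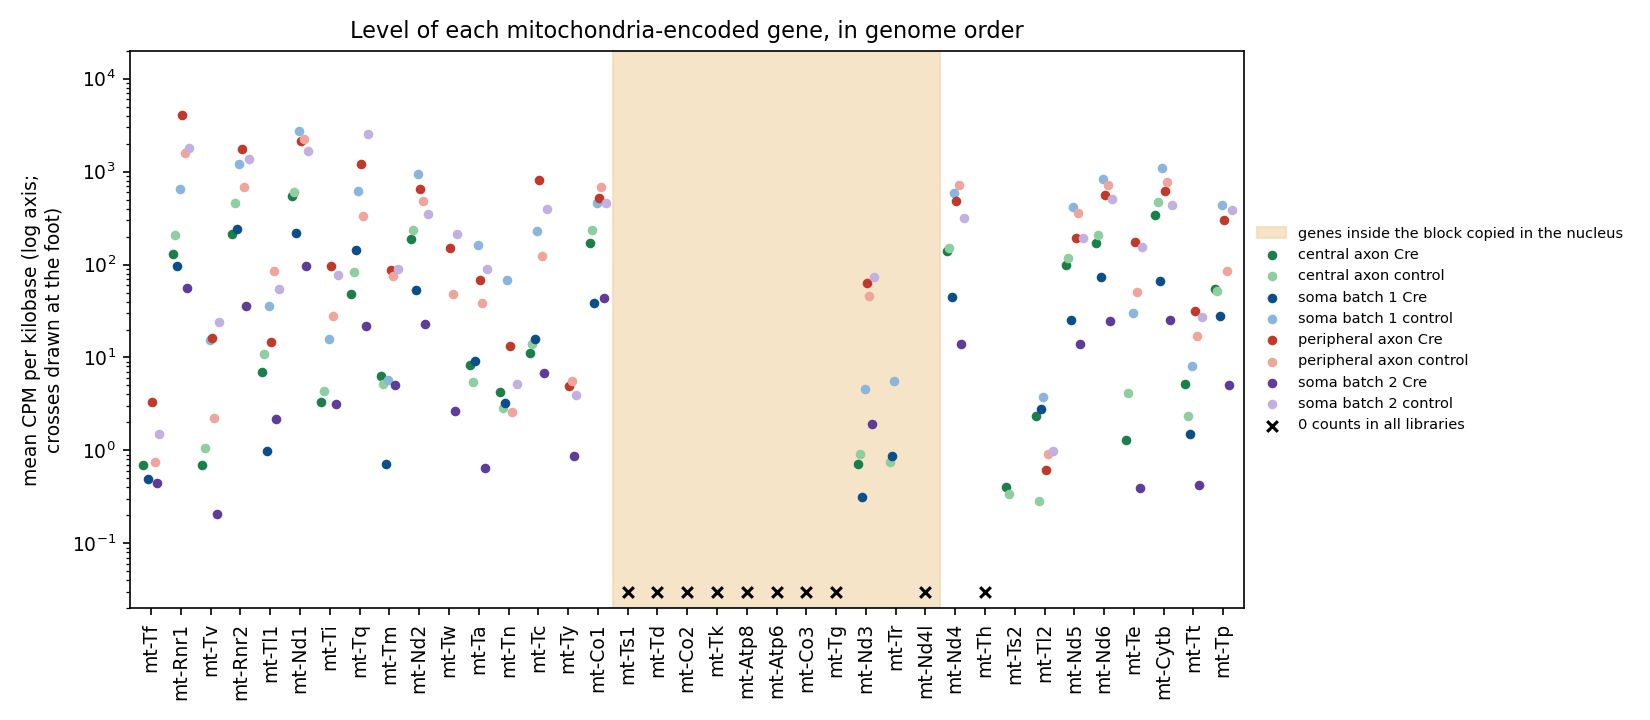
Mean CPM per kilobase of each mitochondria-encoded gene in each of the 8 groups (colours), on a logarithmic vertical axis, with the genes in chromosome order on the horizontal axis, the genes wholly inside the copied stretch shaded, and crosses at the foot for genes at 0 in all libraries. Of the genes wholly inside the shaded stretch, mt-Nd3 and mt-Tr had points, and mt-Co1 and mt-Nd4 at its edges had counts in all 31 libraries.

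Library facts that touch these values were as follows. Total counts ran from 3601399 to 19637292 per library, and the genes with at least 10 counts from 4934 to 16509. The batch 1 soma controls had the fewest such genes, 4934 to 7889, against 12502 to 14015 in the Cre somas of the same batch. Batch 2 soma control replicate 5 had 18080478 counts against 3601399 to 4515978 in the other 3 controls. The batch 2 Cre somas had 15562715 to 19637292, so in these somas depth ran largely with genotype. Peripheral axon Cre libraries 1 to 4 had 4112022, 15058971, 4097863 and 5768003. The part of depth in the differences between these groups was not tested. Scn10a, which marks the tagged neurons, was between 45.1 and 421 CPM in central axon Cre libraries and between 0 and 29.9 in their controls. In peripheral axons it was between 42.1 and 304 CPM with Cre and between 0 and 127 without. In somas it did not separate the genotypes, at 312 to 505 CPM against 33.4 to 625 in batch 1 and 313 to 432 against 286 to 598 in batch 2.

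Counts on the mitochondria-encoded genes came to 1311725 over all libraries. The mRNAs took 762233 of them (58.1%), the rRNAs 533954 (40.7%) and the tRNAs 15538 (1.18%). Of the rRNA counts, 200288 came from peripheral axon Cre replicate 2 alone, whose ratio of mt-Rnr1 to mt-Rnr2 was 3.09. The median of this ratio over the 31 libraries was 0.528, so mt-Rnr1 was below mt-Rnr2 in most of them. In the pooled counts the leading genes were mt-Rnr1 with 20.8%, mt-Rnr2 with 19.9% and mt-Nd1 with 19.2%. Next came mt-Cytb (9.39%), mt-Co1 (7.98%), mt-Nd4 (6.49%), mt-Nd2 (6.31%), mt-Nd5 (5.403%) and mt-Nd6 (3.22%). These 9 genes, 7 mRNAs and both rRNAs, had at least 10 counts in every library. No other member did. Below, a count or median over "the 9 abundant genes" means these, chosen by their total over all 31 libraries and not by any group. Each had at least 42287 counts in total, and the next gene, mt-Tq, had 7636. The other 28 genes passed or failed the filter on low counts depending on the groups compared, so they are described but not counted as support.

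The tRNA counts were thin. At least 10 counts in every library of at least 1 group were reached by 8 of the 22 tRNA genes. mt-Tq (glutamine) reached it in 7 of the 8 groups, mt-Tp (proline) in 5, mt-Tc (cysteine) in 3 and mt-Te (glutamate) in 2. mt-Tl1 (leucine), mt-Ti (isoleucine), mt-Tm (methionine) and mt-Tw (tryptophan) reached it in 1 group each. The 3 tRNA genes with the most counts all lie on the minus strand. Because strand is not stated for the counting, reads from these and from a precursor of the opposite strand cannot be told apart. Their annotated sequences, with no letter marked, show the length of the genes to which reads were assigned, not of the molecules read.
mt-Tq, chrM:3772-3842, minus strand: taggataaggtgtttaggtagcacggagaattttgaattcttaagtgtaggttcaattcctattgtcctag
mt-Tp, chrM:15356-15422, minus strand: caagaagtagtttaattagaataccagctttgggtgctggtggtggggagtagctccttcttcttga
mt-Tc, chrM:5192-5257, minus strand: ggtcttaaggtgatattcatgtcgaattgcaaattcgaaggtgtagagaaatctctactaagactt

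Per kilobase of gene, mt-Nd1 had the highest mean of the 5 abundant mRNAs that can be ranked (mt-Nd1, mt-Nd2, mt-Nd5, mt-Nd6 and mt-Cytb) in all 8 groups. The mRNAs of the copied stretch, mt-Co1 and mt-Nd4 included, are left out of this order. mt-Nd6 lies on the minus strand, so the limit on strand given for the tRNAs holds for its level as well. The mean level of mt-Nd1 was 542 CPM per kilobase in central axon Cre libraries and 609 in their controls, and 2151 and 2240 in peripheral axon Cre and control libraries. In somas it was 219 with Cre and 2735 without in batch 1, and 95.7 and 1677 in batch 2. mt-Cytb was at 338 and 467 in central axons, 616 and 776 in peripheral axons, 66.0 and 1100 in batch 1 somas and 25.3 and 443 in batch 2 somas, with mt-Nd2 or mt-Nd6 above it in 3 of the groups. In central axon Cre libraries the SD of mt-Nd1 over libraries was 329.9, more than its distance from mt-Cytb. Both genes were read in the same 4 libraries, so this SD does not measure the spread of their difference. mt-Nd1 lies next to mt-Rnr2 on the same strand, with the tRNA gene mt-Tl1 between them.

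The share of all counts on the mitochondria-encoded genes ran from 0.0184% to 2.08% over the 31 libraries. Central axon Cre libraries 1 to 4 had 0.259%, 0.274%, 0.0457% and 0.342%, and their controls 0.521%, 0.295%, 0.186% and 0.277%. Peripheral axon Cre libraries 1 to 4 had 0.804%, 1.51%, 1.92% and 0.720%, and control replicates 1, 2 and 4 had 0.492%, 0.826% and 1.48%. In both axon tissues Cre and control libraries overlapped. The 95% Wilson intervals of single libraries, which cover counting error only because the reads carried no molecular identifiers, were far narrower than these gaps (0.256% to 0.262% in central axon Cre replicate 1). Batch 1 Cre somas 1 to 4 had 0.0555%, 0.0800%, 0.0184% and 0.261%. Batch 1 soma controls had 2.08% in replicate 1, 1.45% in a, 0.0274% in 3 and 0.531% in b. Batch 2 Cre somas 5 to 8 had 0.0569%, 0.0489%, 0.0264% and 0.0216%, against 0.111%, 1.78%, 0.878% and 0.613% in controls 5 to 8. In batch 2 the genotypes did not overlap, and in batch 1 the control libraries lay above the Cre libraries apart from replicate 3. The group means were 0.230% ± 0.128 (SD, n = 4) and 0.320% ± 0.143 (n = 4) for central axon Cre and control, and 1.24% ± 0.578 (n = 4) and 0.932% ± 0.501 (n = 3) for peripheral axons. They were 0.104% ± 0.108 and 1.02% ± 0.920 (n = 4 each) for batch 1 somas and 0.0385% ± 0.0171 and 0.845% ± 0.700 (n = 4 each) for batch 2 somas. A share summed over genes is given without a test. In bulk tissue, fewer cells of a type and less RNA per cell cannot be told apart.

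**Figure D2:**
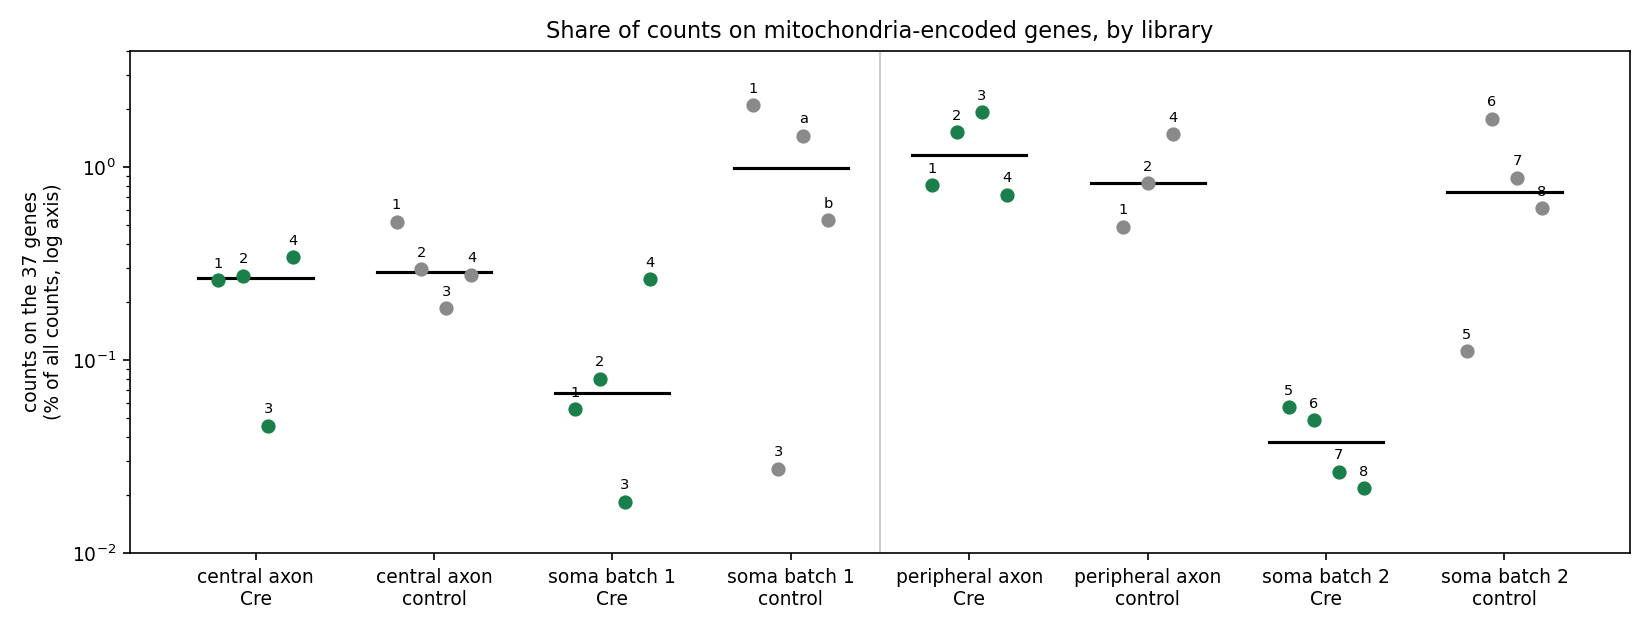
Percent of all counts on the 37 mitochondria-encoded genes in each library (points, numbered by replicate) and the group median (lines), on a logarithmic vertical axis, for Cre and control libraries of the 2 axon tissues and 2 sets of somas. Batch 2 Cre somas sit at 0.0216% to 0.0569%, below all 4 of their controls, while the axon groups overlap.

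In central axons no mitochondria-encoded gene was called different between Cre and control pulldowns. A gene was called where the adjusted p of edgeR's quasi-likelihood test was under 0.05, with Benjamini-Hochberg adjustment over all genes tested. Of 12 members tested, 0 were called, against 0.0141% of all 14189 genes. At an unadjusted p under 0.05 there was 1 (mt-Rnr2), against 4.82% of all genes. DESeq2 also called 0 members, beside 216 of all 14189 genes. The 9 abundant genes all had lower estimates with Cre, with a median log2 fold change of -0.28 (range -1.11 to -0.06) beside 0.11 over all genes.

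mt-Rnr2, the large rRNA, had the largest estimate in central axons. It was at 285, 357, 87.1 and 616 CPM in Cre replicates 1 to 4 and at 825, 494, 626 and 972 CPM in controls. Only the highest Cre library reached into the control range. The log2 fold change was -1.11 (SE 0.49, edgeR adjusted p = 1.00). mt-Rnr1 was at 102, 192, 44.6 and 161 CPM against 205, 191, 189 and 206, a log2 fold change of -0.64 (SE 0.44, edgeR adjusted p = 1.00). mt-Cytb was at 445, 402, 78.3 and 620 CPM against 948, 470, 436 and 283, with Cre replicate 3 far below the rest. Its log2 fold change was -0.43 (SE 0.56). mt-Nd4 was at 233, 236, 28.7 and 281 CPM against 440, 218, 40.4 and 139, which overlapped (-0.06, SE 0.74). mt-Tq was at 4.25, 7.00, 0.904 and 1.44 CPM against 3.31, 5.89, 10.003 and 4.30 (-0.72, SE 1.32). mt-Tp was at 2.45, 7.09, 0.904 and 4.12 CPM against 4.44, 4.48, 3.33 and 1.64 (0.10, SE 1.26). Both tRNAs were near the limit of counting, and their groups overlapped. Leaving out 1 library changed the sign of the estimate for 6 of the 7 abundant mRNAs, all but mt-Co1, and for the tRNAs mt-Tc and mt-Tp, so no direction is drawn here.

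In peripheral axons the picture was the same, with 0 of 19 members called, against 0% of all 13970 genes. At an unadjusted p under 0.05 there was 1 member (mt-Tc), against 3.68% of all genes. DESeq2 called 27 genes and none of the members. Of the 9 abundant genes 4 had higher and 5 lower estimates, with a median of -0.11 beside 0.07 over all genes. Both rRNAs had positive estimates and the 7 abundant mRNAs were split, so the mean share of the 37 genes was 0.309 percentage points higher with Cre, but 0.106 points lower (-0.106) when only the 13 mRNAs were summed.

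mt-Rnr2 was at 1578, 3251, 4757 and 1482 CPM in peripheral axon Cre replicates 1 to 4 and at 477, 1525 and 1268 CPM in controls 1, 2 and 4. The Cre range began just inside the control range, with a log2 fold change of 1.45 (SE 0.68, edgeR adjusted p = 1.00). mt-Rnr1 was at 866, 10050, 3095 and 1419 CPM against 310, 3968 and 319, and replicate 2 was the highest library of both genotypes (1.32, SE 1.15). mt-Cytb was at 610, 229, 1505 and 472 CPM against 480, 319 and 1863, with 1 high library in each group (-0.11, SE 0.73). mt-Nd4 was at 420, 211, 1430 and 611 CPM against 271, 248 and 2430 (-0.31, SE 0.86), with the same libraries high. mt-Nd6, the only mRNA of the minus strand, was at 220, 141, 599 and 211 CPM against 110, 133 and 874 (-0.12, SE 0.75). In all 3 mRNAs Cre replicate 3 and control replicate 4 were the highest libraries of their groups. mt-Tc had the largest estimate, 2.97 (SE 1.26, edgeR adjusted p = 1.00), from 11.7, 5.71, 170 and 27.2 CPM against 5.72, 2.93 and 16.1. The value of Cre replicate 3 stood well above the others. mt-Tl1 went the other way, at 0.973, 0.0664, 2.68 and 0.693 CPM against 5.94, 0.925 and 12.4 (-2.30, SE 1.66).

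In somas, by contrast, the estimates for mitochondria-encoded genes were lower in Cre than in control pulldowns in both batches, although none passed the threshold. In batch 2, 0 of 17 members were called, against 0% of all 15280 genes. All 9 abundant genes had an unadjusted edgeR p under 0.05 and were lower, against 9.84% of all genes, and their adjusted p ran from 0.051 to 0.089. DESeq2 called 17 members, beside 1160 of all 15280 genes in either direction. The groups did not overlap for 8 of the 9, all but mt-Rnr1, against 7.58% of all genes whose Cre libraries lay wholly below the controls. The median log2 fold change of the 9 was -3.87 beside 0.06 over all genes.

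mt-Cytb was at 38.8, 26.3, 30.1 and 20.4 CPM in batch 2 Cre somas 5 to 8 and at 96.5, 649, 706 and 575 CPM in controls 5 to 8. Control replicate 5 lay between the Cre libraries and the other controls, and the log2 fold change was -3.85 (SE 0.53, edgeR adjusted p = 0.051). mt-Nd4 was at 28.6, 22.5, 15.9 and 10.6 CPM against 65.0, 625, 553 and 516 (-4.23, SE 0.61). mt-Nd5 was at 32.8, 25.8, 21.6 and 20.9 CPM against 58.1, 523, 489 and 339 (-3.52, SE 0.54). mt-Co1 had the smallest change, at 138, 52.6, 46.4 and 36.05 CPM against 231, 763, 1148 and 735 (-3.15, SE 0.51, edgeR adjusted p = 0.051). In each of these mRNAs control replicate 5 was the lowest control. It was the deepest control library and alone lay in the depth range of the Cre somas. The rRNAs were more scattered. mt-Rnr2 was at 64.9, 114, 26.02 and 24.2 CPM against 155, 6049, 1466 and 999 (-4.98, SE 0.98, edgeR adjusted p = 0.0587). mt-Rnr1 was at 36.7, 147, 12.7 and 16.1 CPM against 69.5, 5326, 988 and 533 (-4.75, SE 1.21, edgeR adjusted p = 0.089). For mt-Rnr1 Cre replicate 6 lay above control replicate 5. Without control replicate 6, the highest library of both rRNAs, the estimates were -3.65 for mt-Rnr2 and -3.02 for mt-Rnr1.

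Among the tRNAs tested in batch 2 somas, mt-Tm overlapped between the genotypes, while mt-Tq and mt-Te did not. mt-Tq was at 2.00, 1.09, 1.73 and 1.43 CPM against 4.09, 567, 91.1 and 66.2 (-6.58, SE 1.18, edgeR adjusted p = 0.0572). mt-Te had 0, 0, 1 and 1 counts in the Cre libraries and 18, 117, 27 and 25 in controls. Its fitted log2 fold change of -7.84 depends on the small count the fit adds and is no bound. Leaving out control replicate 5, all 9 abundant genes were called lower, with a median of -4.19, against 5.28% of all genes called lower. Leaving out control replicate 7 instead, 14 members were called, a count given without the share of all genes called in that fit.

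In batch 1 somas 0 of 11 members were called, against 4.42% of all 11667 genes in either direction and 0.0514% in the lower direction. The 9 abundant genes all had lower estimates, with a median of -3.92 beside -0.45 over all genes. An unadjusted edgeR p under 0.05 was found for 8 of them, all lower, against 6.57% of all genes. DESeq2 called 9 members, beside 1902 of all 11667 genes in either direction. None of the 9 abundant genes separated the groups, against 0.429% of all genes whose Cre libraries lay wholly below the controls. The calls turned on control replicate 3. It had the fewest mitochondrial counts of the 4 controls and a scaling factor of 0.0547 where the other 7 libraries had 1.303 to 1.783. Without it, 8 of the 9 were called lower, with a median of -4.16, against 0.918% of all genes. On the scale of library size alone the median was -3.66, so the direction did not rest on the scaling.

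mt-Cytb shows the pattern in batch 1 somas, at 61.4, 96.2, 17.2 and 127 CPM in Cre replicates 1 to 4 against 2163 in control 1, 2782 in a, 10.36 in 3 and 79.3 in b. Controls 1 and a were the high libraries, and controls 3 and b did not exceed the Cre range (-4.39, SE 1.59, edgeR adjusted p = 0.266). mt-Nd4 was at 42.3, 61.6, 21.7 and 123 CPM against 1619, 1370, 109 and 130 (-4.82, SE 1.53, edgeR adjusted p = 0.147). mt-Rnr2 was at 43.5, 71.1, 49.7 and 1374 CPM against 2566, 2119, 15.5 and 2968 (-2.72, SE 1.65, edgeR adjusted p = 0.418). For mt-Rnr2, unlike mt-Cytb, control b was the highest library and Cre replicate 4 stood far above the other Cre libraries. Without that library the estimate was -5.35, and -2.28 without Cre replicate 1. mt-Rnr1 was at 16.2, 46.6, 26.2 and 281 CPM against 935, 674, 32.04 and 837 (-3.44, SE 1.31, edgeR adjusted p = 0.280), and its estimate was -4.93 without Cre replicate 4. mt-Tq was at 0.932, 5.16, 7.59 and 27.1 CPM against 32.1, 13.3, 64.7 and 67.0 (-5.69, SE 1.8, edgeR adjusted p = 0.147), and its estimate was -2.12 without control 3. Of the genes given here, mt-Tq was the only one for which control 3 was not the lowest control.

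The abundant mRNAs not yet described followed the same course. mt-Nd1 ranged from 22.4 to 369 CPM in batch 1 Cre somas against 11.8 to 7060 in controls (-3.87, SE 1.68), and from 53.7 to 173 against 327 to 2482 in batch 2 (-3.87, SE 0.59). mt-Nd2 ranged from 14.3 to 94.6 CPM against 12.5 to 2844 (-4.42, SE 1.41) in batch 1 and from 17.4 to 37.3 against 53.9 to 574 in batch 2 (-3.67, SE 0.59). mt-Nd6 ranged from 8.37 to 88.8 CPM against 1.73 to 961 in batch 1 (-3.79, SE 1.31) and from 10.3 to 14.4 against 38.9 to 381 in batch 2 (-4.06, SE 0.57). In batch 2 the highest Cre library was below the lowest control for all 3, and in batch 1 it was not for any. mt-Nd3, inside the copied stretch, was at 0.560 to 0.874 CPM in batch 2 Cre somas against 1.88 to 39.7 in controls (-4.97, SE 0.95, edgeR adjusted p = 0.0583).

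**Figure D3:**
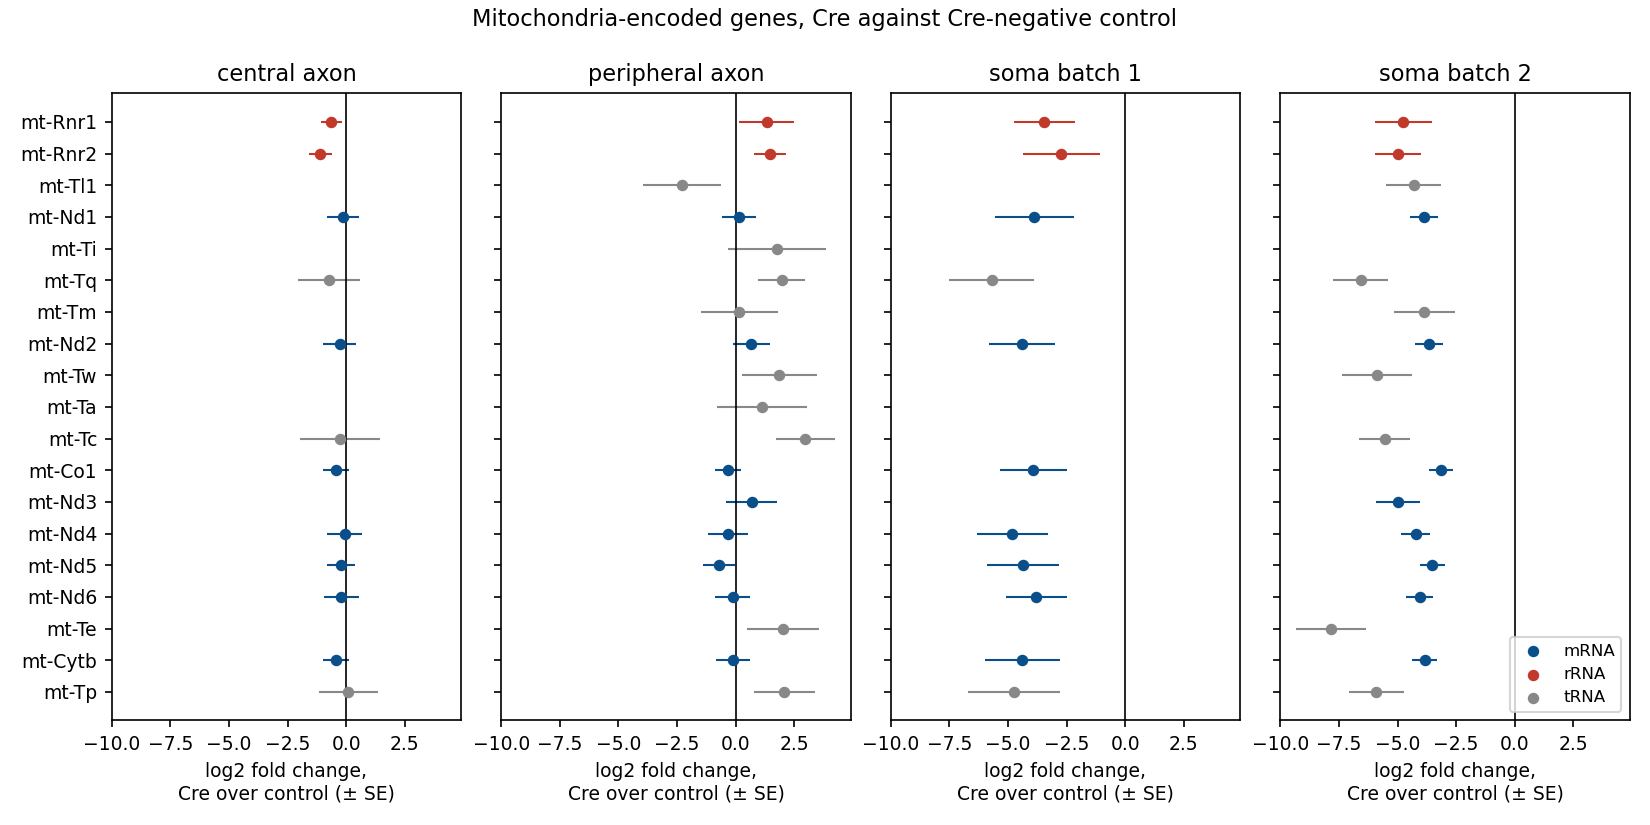
Log2 fold change of Cre over control pulldowns for each tested mitochondria-encoded gene, with bars of 1 standard error of the edgeR fit, in the 4 comparisons of genotype. The 9 abundant genes lie around 0 in the axon comparisons (medians -0.28 and -0.11) and between -4.98 and -2.72 in the soma comparisons.

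In batch 2, summed markers of several other cell types also lay lower in the Cre somas, without overlap with the controls. These were fibroblasts, Schwann cells, satellite glia, oligodendrocytes, endothelium, and macrophages with microglia. Astrocyte markers (6 genes) went the other way with overlap, at 216 to 386 CPM with Cre against 80.8 to 313 without. In batch 1 they were at 169 to 337 CPM against 2.11 to 314. Skeletal muscle and adipocyte markers overlapped in batch 2. Oligodendrocyte markers (6 genes, 3 at 0 in all controls) were at 20.2 to 31.2 CPM against 51.6 to 248 in batch 2. Summed fibroblast markers (6 genes, none at 0 in every library) were at 173 to 364 CPM in batch 2 Cre somas and at 907 to 3656 CPM in controls, and 6 of 6 had lower estimates with 0 called. Summed Schwann cell markers (10 genes) were at 757 to 960 CPM against 1257 to 3087, satellite glia markers (6 genes) at 172 to 336 against 492 to 2412, and red blood cell markers (5 genes) at 25.4 to 145 against 85.1 to 1802. Of these lists 9 of 10, 6 of 6 and 5 of 5 genes had lower estimates, with 0 called. Endothelial markers (5 genes) were at 4.29 to 12.02 CPM against 29.98 to 74.99, and macrophage and microglia markers (6 genes) at 16.5 to 29.8 against 32.6 to 74.7, with all 5 tested genes of each lower and 0 called. RNAs kept in the nucleus, such as Malat1, were at lower levels with slight overlap (8 genes, 323 to 1051 CPM against 988 to 6188), and 7 of 7 tested had lower estimates with 0 called. Nociceptor markers (9 genes) overlapped, at 7421 to 9217 CPM against 4181 to 7572. Without control replicate 5, 6 of 6 fibroblast, 4 of 10 Schwann cell, 3 of 6 satellite glia and 4 of 5 red blood cell markers were called lower. In batch 1, fibroblast markers were at 193 to 1211 CPM in Cre somas and 902 to 6166 in controls, and Schwann cell markers at 844 to 2540 against 30.6 to 9544. Satellite glia markers were at 151 to 495 CPM against 692 to 2717, without overlap, although Cdh19 of this list was at 0 in all controls. Endothelial markers were at 3.42 to 42.9 CPM against 0.755 to 246 (Tek at 0 in all controls), red blood cell markers at 29.0 to 149 against 3.24 to 925, and nuclear-retained RNAs at 386 to 13399 against 359 to 34388. Estimates were lower for 5 of 5 tested fibroblast, 9 of 10 Schwann cell, 4 of 4 satellite glia, 3 of 3 endothelial, 4 of 4 red blood cell and 6 of 7 nuclear-retained genes, with 0 called. The part of other cells, or of nuclear RNA, in the lower mitochondrial RNA was not tested.

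Whether the effect of Cre differed between axon and soma was tested as an interaction within each batch. In batch 1, 0 of 14 members were called, against 0% of 15355 genes, and the 9 abundant genes all had positive estimates (axon effect above soma effect) with a median of 3.52. In batch 2, 0 of 20 were called, against 0.00636% of 15717 genes, with 9 of 9 positive and a median of 3.82. At an unadjusted edgeR p under 0.05 there were 7 of 9 in batch 1, against 3.18% of all genes in that direction, and 9 of 9 in batch 2, against 7.23%. mt-Cytb gave 3.73 (SE 1.39, edgeR adjusted p = 0.145) in batch 1 and 3.61 (SE 0.95, edgeR adjusted p = 0.293) in batch 2. DESeq2 called 1 member in batch 1 and 15 in batch 2. The share of all genes called in those DESeq2 fits is not given here, so nothing particular to the members is read from these counts. These interactions use the same soma libraries as the soma comparisons and are not a separate line of data. Leaving out batch 1 soma control replicate 3, 5 of the 9 were called positive, against 0.491% of all genes.

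Among Cre libraries, sciatic nerve pulldowns had a far larger share of counts on mitochondria-encoded genes than ganglion pulldowns of the same batch. All 9 abundant genes were called higher in axons, against 18.7% of all 15467 genes, with a median log2 fold change of 4.46 (range 3.36 to 6.06) beside -0.03 over all genes. The 4 axon and 4 soma libraries did not overlap for any of the 9, against 20.7% of all genes that lay wholly higher in axons. The other 8 members tested were also called higher. They passed the filter on low counts through the groups compared, which can be the axon group alone, so they are not counted as support. The values of each library are those given above. mt-Cytb differed by 4.46 (SE 0.58, edgeR adjusted p = 0.000235), mt-Nd4 by 4.98 (SE 0.63, edgeR adjusted p = 0.000202) and mt-Rnr2 by 5.48 (SE 0.69, edgeR adjusted p = 0.000191). mt-Rnr1 had the largest difference of the 9 (6.06, SE 1.09, edgeR adjusted p = 0.00185) and mt-Co1 the smallest (3.36, SE 0.56, edgeR adjusted p = 0.00123). The complex I mRNAs lay between, with mt-Nd5 at 3.64, mt-Nd1 at 4.35, mt-Nd6 at 4.37 and mt-Nd2 at 4.73. The nerve and the ganglion also differ in which cells surround the axon or soma. Schwann cell markers were called higher in axons for 9 of 10 genes, fibroblast markers for 6 of 6, endothelial markers for 5 of 5 and skeletal muscle markers for 5 of 5 tested. Their summed levels in axon and soma Cre libraries were 11615 to 30415 against 757 to 960 CPM for Schwann cells and 3816 to 6686 against 173 to 364 CPM for fibroblasts. Nuclear-retained RNAs were called higher for 4 of 7 tested. Nociceptor markers were called lower for 7 of 9, against 12.5% of all genes. The part of these cells in the mitochondrial difference was not tested.

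In the controls, which carried no driver, libraries of the same 2 tissues overlapped for all 9 abundant genes. Between peripheral axon and batch 2 soma controls 0 of 18 members were called, against 0.0802% of 13715 genes. At an unadjusted edgeR p under 0.05 there was 1 member (mt-Tq), against 9.78% of all genes, and none of the 9 abundant genes. DESeq2 called 0 members. Of the 9, 7 had positive estimates with a median of 0.31 beside -0.11 over all genes. mt-Cytb gave 0.62 (SE 0.71, edgeR adjusted p = 0.866) and mt-Rnr2 -1.03 (SE 0.98, edgeR adjusted p = 0.830). Without soma control replicate 5 the median was -0.0016 and 4 of the 9 estimates were positive. The test of the difference between this contrast and that among Cre libraries is the batch 2 interaction, in which 0 members were called.

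Between central axons and batch 1 somas with Cre, 1 of 11 members was called, against 13.7% of all 14480 genes, and 8.63% were called higher. This was mt-Cytb, at 1.96 (SE 0.59, edgeR adjusted p = 0.0432), whose axon libraries overlapped the somas because of replicate 3. The call was lost without axon replicate 1, 2 or 4 or soma replicate 1, 2 or 3 (edgeR adjusted p 0.0767 to 0.137) and when the batch was fitted as a whole (edgeR adjusted p = 0.717). It held under the 7 other settings of scaling, filter and tool, DESeq2 and limma-voom included (adjusted p 0.00264 to 0.0478). The 7 abundant mRNAs all had positive estimates, from 0.86 for mt-Nd6 to 1.96 for mt-Cytb, while mt-Rnr1 was at 0.06 (SE 0.71) and mt-Rnr2 at -0.57 (SE 0.93). Between central axon and soma controls 0 of 13 were called, against 0% of 9202 genes, and all 9 abundant genes had negative estimates, with a median of -2.24. At an unadjusted edgeR p under 0.05 there was 1 (mt-Nd1), against 12.4% of all genes, and DESeq2 called 0 members. Dorsal root with spinal cord and the ganglion also differ in which cells surround the axon or soma. Summed astrocyte markers were at 706 to 2766 CPM in central axon Cre libraries against 169 to 337 in Cre somas. Satellite glia markers were at 1214 to 3813 against 151 to 495, while Schwann cell, fibroblast and oligodendrocyte markers overlapped. The part of these cells was not tested.

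The nuclear-encoded partners of these genes were read beside them, from lists of 36 subunits of complex I, 9 of complex III, 11 of complex IV and 16 of complex V. In the peripheral axon against soma comparison of Cre libraries, 0 of the 71 tested were called higher, against 18.7% of all genes, and 11 lower, a share near the 12.5% of all genes called lower, with a median of -0.29, while all 9 abundant mitochondria-encoded genes were higher. By complex, 4 of 36 complex I, 3 of 9 complex III, 0 of 11 complex IV and 4 of 15 tested complex V subunits were lower. Examples were Ndufv1 of complex I (-1.44, SE 0.28, edgeR adjusted p = 0.00283), Uqcrc1 of complex III (-1.46, SE 0.33, edgeR adjusted p = 0.00627) and Atp5d of complex V (-1.41, SE 0.32, edgeR adjusted p = 0.00676). In the central axon against soma comparison 42 of 71 were called lower, against 5.11% of all genes, and 0 higher, with a median of -1.26. On library size alone 26 were called lower, beside 293 of all 14480 genes. The leading genes there were Ndufb3 of complex I (-2.23, SE 0.38, edgeR adjusted p = 0.00329), Atp5k of complex V (-2.19, SE 0.48, edgeR adjusted p = 0.0113), Uqcr11 of complex III (-2.13, SE 0.43, edgeR adjusted p = 0.0078) and Cox6b1 of complex IV (-1.73, SE 0.39, edgeR adjusted p = 0.0137). The mRNAs for proteins of the mitochondrial ribosome went the same way, with 23 of 77 called lower in central and 23 of 77 in peripheral axons, and 1 and 0 called higher. Summed complex I subunits were at 7780 to 11417 CPM in central axon Cre libraries and 6229 to 9852 in their controls. In batch 1 Cre somas they were at 14482 to 20999. The part of other cells of the axon tissues in these differences was not tested.

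Few genes that act on mitochondrial DNA and RNA were called. In central axons against somas 4 of 33 tested were called higher and 1 lower, against 8.63% and 5.11% of all genes. Those with the smallest p were Polg, the mitochondrial DNA polymerase (1.99, SE 0.39, edgeR adjusted p = 0.0067), Polrmt, the mitochondrial RNA polymerase (1.81, SE 0.42, edgeR adjusted p = 0.0143), and Mtpap, the mitochondrial poly(A) polymerase (1.69, SE 0.47, edgeR adjusted p = 0.0319). In peripheral axons 1 of 32 was called higher and 4 lower, against 18.7% and 12.5% of all genes. With counts this small nothing particular to the list is read from them.

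With the tag against without it, the medians of nuclear-encoded subunits and mitochondria-encoded genes differed in sign in batch 2 somas. There 60 of 71 nuclear subunits had positive estimates, with a median of 0.41 and 0 called, beside -3.87 for the 9 mitochondria-encoded genes. In peripheral axons the medians were 0.94 (58 of 71 positive) and -0.11, and in central axons 0.38 (57 of 71 positive) and -0.28, with 0 called in either. The axon medians of the mitochondria-encoded genes have no firm sign. Over all tested members and leaving out 1 library, they ran from -0.30 to 1.28 in peripheral and from -0.57 to 0.10 in central axons. In batch 1 somas the sign for nuclear subunits depended on the scaling. It was -2.66 with TMM and -2.14 with RLE scaling, 0.60 with library size alone and 0.94 without control replicate 3. In that last fit 7 nuclear subunits were called higher. Of all 12741 genes 3094 were called there in either direction, 117 of them lower, so nothing particular to the subunits is read from the 7. The median of the 9 mitochondria-encoded genes was negative in each of these 4 fits, from -4.24 to -3.66. Over all genes tested, library size alone moved the median from -0.45 to 0.36 there, from 0.06 to -0.20 in batch 2 somas, from 0.05 to 0.50 between central axons and somas with Cre, and from -0.03 to 0.17 between peripheral axons and somas with Cre.

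**Figure D4:**
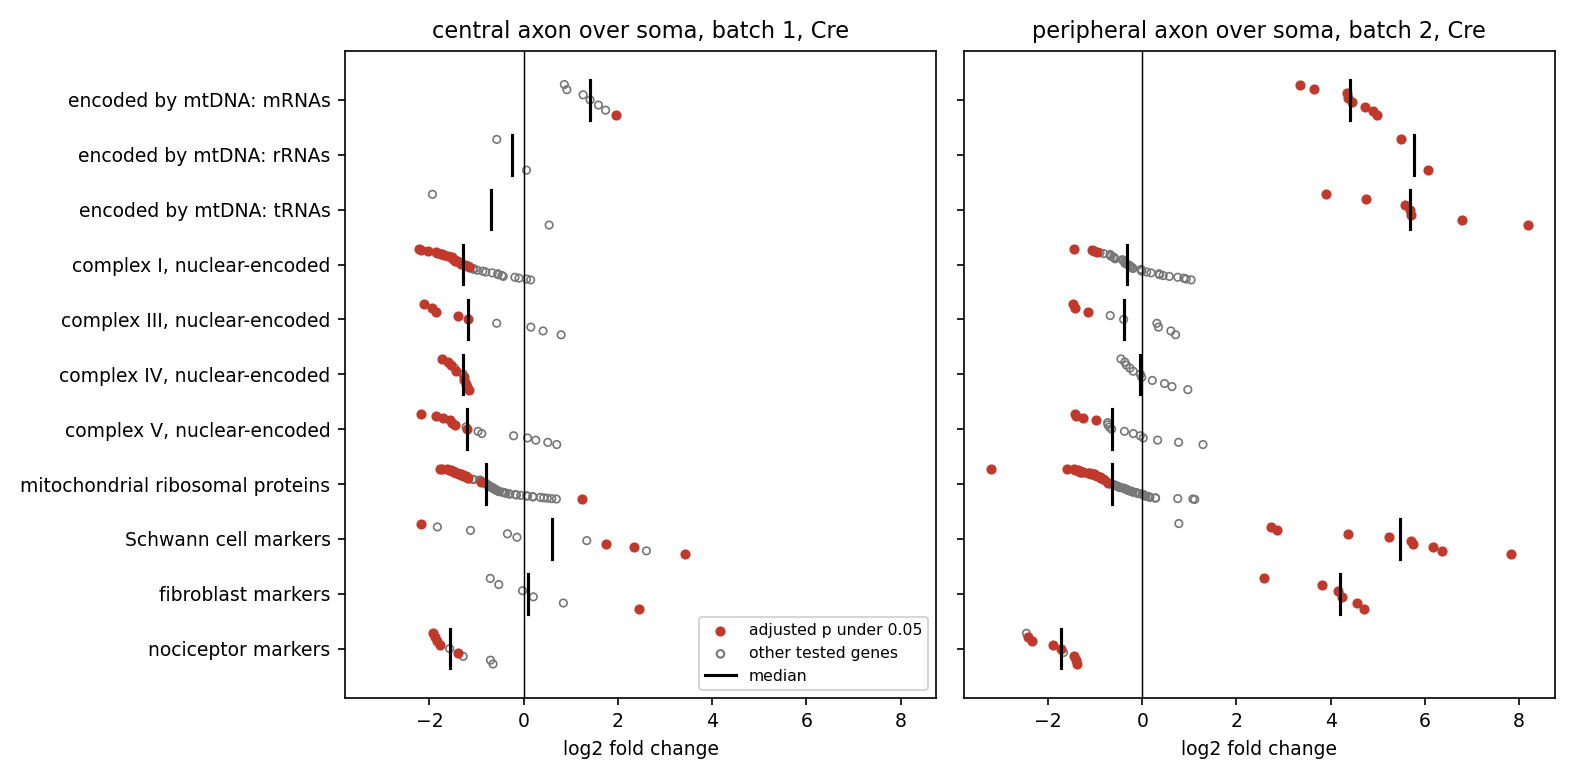
Log2 fold change of axon over soma among Cre libraries for the mitochondria-encoded genes by class, nuclear-encoded subunits by complex, mitochondrial ribosomal proteins and 3 marker lists, each point a gene (filled where edgeR's adjusted p was under 0.05) and each vertical bar a list's median, in central axons (batch 1) and peripheral axons (batch 2). The mitochondria-encoded genes lie above 0 in the peripheral panel (median of the 9 abundant genes 4.46) and the nuclear subunits around and below it (median -0.29).

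The make-up of the mitochondrial counts varied between libraries of 1 group as much as between groups. The ratio of rRNA to mRNA counts was 0.177 to 0.407 in central axon Cre libraries and 0.247 to 0.790 in their controls, with no library above 1. Single libraries of other groups had a far higher ratio than the rest of their group. Peripheral axon Cre replicate 2 had a ratio of 7.49 against 0.442 to 0.727 in the other 3, and control replicate 2 had 2.05 against 0.121 and 0.192. Batch 1 soma control b had 2.66 against 0.204 to 0.2998, and batch 1 Cre soma 4 had 1.79 against 0.121, 0.175 and 0.764. In batch 2 somas replicate 6 was the highest in both genotypes, at 1.16 with Cre and 2.03 without, against 0.175 to 0.234 and 0.257 to 0.399 in the rest. The balance of the 2 rRNAs shifted in some of the same libraries, with a ratio of mt-Rnr1 to mt-Rnr2 of 3.09 in peripheral axon Cre replicate 2 and 2.60 in control replicate 2, against 0.252 to 0.957 in the other 5 nerve libraries. The ratio was 2.06 in batch 1 soma control 3, which also had 24.8% of its mitochondrial counts on tRNAs. In 25 of 31 libraries mRNA counts exceeded rRNA counts. These are counts after amplification. How well the amplification takes up each class of RNA was not tested, so the ratios do not measure amounts in the tissue.

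**Figure D5:**
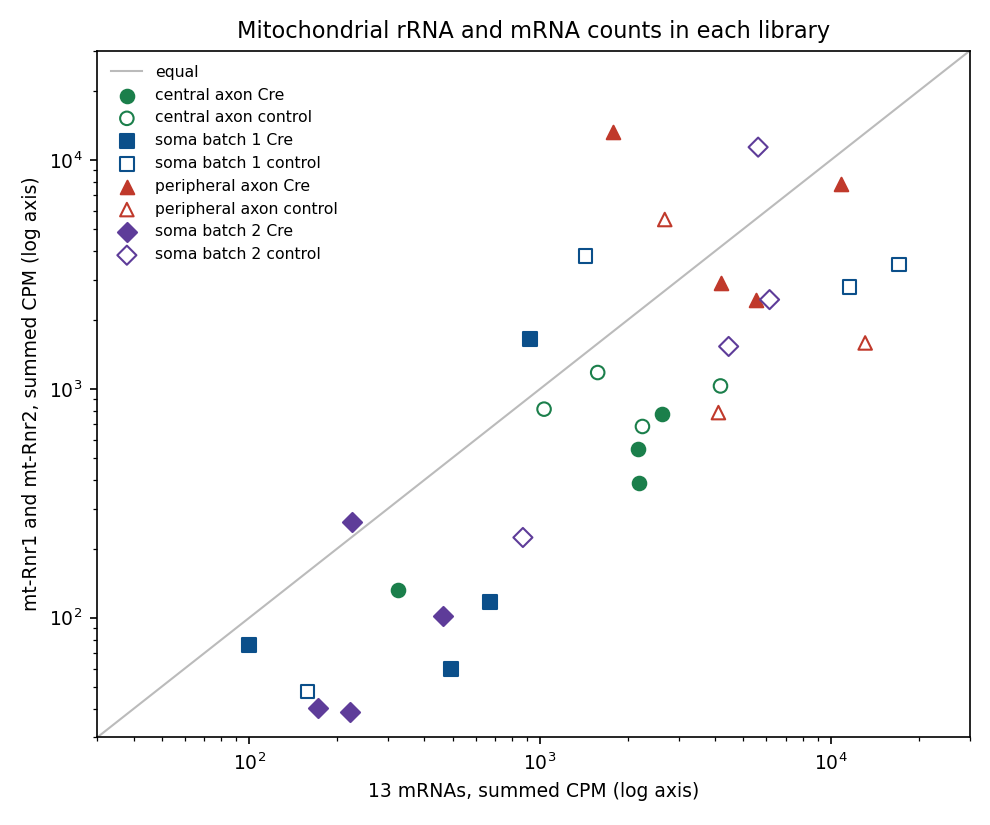
Summed CPM of the 2 mitochondrial rRNAs against summed CPM of the 13 mitochondrial mRNAs in each library, both axes logarithmic, with a line at equal values. Peripheral axon Cre replicate 2 lies furthest above the line, at 7.49 times as many rRNA as mRNA counts, and the 8 central axon libraries all lie below it.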

How the data were processed

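Deposited raw counts per gene were used, as the authors made them, for 55536 GENCODE M21 genes in 31 libraries. Per the labels' protocols, ribosome-bound RNA (under 100 pg from axons, under 1 ng from somas) was purified with a NanoPrep kit and amplified with SMART-Seq v4. The submitters' processing notes name STAR 2.7.2b and mm10. The counting program, its use of strand and its handling of reads that fit several places are not given in the sources used here. Columns were matched to samples by their headings.

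Counts were tested with edgeR 4.0.16 in R 4.3.3 (filterByExpr, minimum count 10, TMM, quasi-likelihood F test), fitting only the groups compared over all genes. Benjamini-Hochberg adjusted p under 0.05 was called. CPM were computed from the total counts of each library, without TMM. The standard error is the log2 fold change over the square root of F. The fits of genotype and of interaction, but not those of axon against soma, were run on simulated data with 200 changed genes each. The simulated data held no outlying library, and the outcome is not given here. DESeq2 1.42.0, limma 3.58.1 (voom), other scalings, other filters, all groups in 1 fit, a replicate block and leaving out each library were tried as alternatives. Copies were sought with BLAST 2.17.0 in 141730 nuclear transcripts (at least 90% identity over 100 bases) and by unchanged windows of 50 bases.

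The genes and lists were chosen with earlier results of these data known. Values in every library are given for mt-Cytb, mt-Nd4, mt-Rnr2, mt-Rnr1 and, in each comparison of genotype, the members with the 2 largest and 2 smallest changes. Other mRNAs have group ranges, and other lists up to 3 genes with the smallest p. Each SD is over libraries, and Wilson intervals are at 95%.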

Additional observations from a re-analysis of the deposited data

Results flagged for a closer look

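The tests for a library far from the others of its group covered 49 sets of values, and chance would mark about 1 in 20. There were 8 such values, all of them an rRNA level or a ratio with an rRNA in it. In batch 1 Cre somas, replicate 4 had 281 CPM of mt-Rnr1 where the others had 16.2 to 46.6, and 1374 CPM of mt-Rnr2 where the others had 43.5 to 71.1. In batch 1 soma controls, replicate b had a ratio of rRNA to mRNA counts of 2.66 against 0.204 to 0.2998, and replicate 3 a ratio of mt-Rnr1 to mt-Rnr2 of 2.06 against 0.282 to 0.365. Peripheral axon Cre replicate 2 stood apart in both ratios, at 7.49 against 0.442 to 0.727 for rRNA to mRNA and at 3.09 against 0.549 to 0.957 for mt-Rnr1 to mt-Rnr2. In batch 2 somas replicate 6 had the highest ratio of rRNA to mRNA in each genotype, 1.16 against 0.175 to 0.234 with Cre and 2.03 against 0.257 to 0.399 in controls.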

How the results depend on the processing

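With edgeR, members called in batch 1 somas went from 0 to 4 on library size alone, 7 with no filter, 9 in DESeq2 and 8 with all 4 groups in 1 fit (0 to 9 leaving out 1 library, with 9 without control 3 and 1 without any 1 Cre library). In batch 2 somas they went from 0 to 7 with RLE scaling or a filter of 10 counts in every library of a group, 13 on library size alone or with all 4 groups, 14 with no filter and 17 in DESeq2 (0 to 19 leaving out 1 library, with 19 without control 5 and 14 without control 7). Between central axons and somas with Cre, 1 became 2, 4, 3 and 0 (library size, no filter, DESeq2, all groups; 0 to 3 leaving out 1 library) and 4 with the replicate block. The interaction gave 1 in batch 1 (DESeq2; 0 to 5 leaving out 1 library) and 7 (no filter) or 15 (DESeq2) in batch 2 (0 to 3). Peripheral axons against somas with Cre had 17 called, 15 in DESeq2 and 17 to 19 leaving out 1 library. Over all genes, batch 1 somas had 2244 of 11667 called on library size alone and 1700 of 26037 with no filter. They had 2114 of 15355 with all 4 groups and 3094 of 12741 without control 3. Batch 2 somas had 21 of 15280 with RLE scaling and 21 of 14453 with the filter of 10. They had 257 of 15280 on library size alone and 162 of 28164 with no filter. These calls are in either direction. Apart from the DESeq2 soma fits, given above, the other counts lack this share. Nothing particular to the members is read from them. The mean share in peripheral axon Cre minus control was -0.106 over the 13 mRNAs and 0.309 over all 37 genes, and minus soma with Cre 0.530 and 1.20. Between peripheral axon and soma controls it ran from -0.187 (without axon control 4) to 0.398, and was -0.159 without soma control 5. The cause of these changes was not tested, except that leaving out a library removes its spread.

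Estimates that changed sign were as follows, none of them called. In central axons against controls voom and the replicate block gave 0.57 and 0.60 for mt-Tc, and -0.14 and -0.12 for mt-Tp. In peripheral axons they gave -0.90 and -0.57 for mt-Nd3, -0.02 (-0.0189) and -0.48 for mt-Nd1 (-0.0593 on library size), the block -0.18 for mt-Nd2 and voom 0.12 for mt-Nd6. mt-Rnr2 between central axons and somas with Cre was 0.74 and 0.79, and mt-Rnr1 between peripheral axon and soma controls 0.27 in voom. Leaving out 1 library, central axon estimates ran from -0.74 to 0.03 (0.0298) for mt-Cytb, -0.41 to 0.40 for mt-Nd1, -0.61 to 0.17 for mt-Nd2, -0.40 to 0.63 for mt-Nd4, -0.47 to 0.46 for mt-Nd5, -0.56 to 0.41 for mt-Nd6, -0.79 to 0.89 for mt-Tc and -0.42 to 0.42 for mt-Tp. Peripheral axon estimates ran from -0.94 to 0.89 for mt-Cytb, -0.54 to 0.88 for mt-Nd1, -0.41 to 1.60 for mt-Nd2, -0.39 to 1.25 for mt-Nd3, -1.14 to 1.42 for mt-Nd4, -1.29 to 0.57 for mt-Nd5, -0.86 to 1.31 for mt-Nd6 and -0.41 to 4.05 for mt-Tm. Between peripheral axon and soma controls they ran from -0.34 to 1.01 for mt-Cytb, -0.74 to 1.40 for mt-Nd4, -2.66 to 1.67 for mt-Rnr1 and -1.54 to 0.33 for mt-Rnr2. Between central axons and somas with Cre they ran from -0.29 to 1.60 for mt-Rnr1 and -0.98 to 2.11 for mt-Rnr2. Deviations of same-numbered libraries correlated at -0.095 to 0.193, so the numbers were not taken to pair them, and the block changed no other count. Apart from fits that left out 1 library, 599 single-gene values kept their direction and side of the threshold, 104 newly passed it and 1 no longer did. A search of the whole genome for copies was not run.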
